A study of Mus musculus with 2 samples.

Results

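Selectins and leukocyte adhesion ligands are the surface proteins with which a vessel wall slows, stops and holds blood cells. Of the 27999 genes measured, 9 were taken by symbol: the selectins Sele and Selp, the immunoglobulin-family ligands Vcam1, Icam1 and Icam2, the homotypic adhesion molecules Alcam and Mcam, the sialomucin Podxl and the hyaluronan receptor Cd44. Bone marrow niche cells of LepR-Cre;LSL-tdTomato mice on the C57Bl/6JCrl strain, aged 3 to 4 months, were profiled in 2 droplet single-cell libraries. In these mice Cre driven from the leptin receptor gene switches on the red protein tdTomato, so a cell stays marked if it, or a cell it descends from, once expressed Lepr. The LepR_tdT library is labelled as tdTomato-positive marrow cells and the EC library as marrow endothelial cells, and both carry the same alleles. Each is 1 library, and how many mice were pooled is not given in the sources used here. The protocol text numbers its samples 1 to 3 and 3 to 4, which overlap, and names a tamoxifen gavage, an injected VE-cadherin antibody, flushed tibial marrow digested with enzymes, and stains for CD45, Ter119 and LepR. Which of these steps applied to which library is uncertain.

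E-selectin and P-selectin catch passing leukocytes by sialylated and fucosylated sugars on mucin-like carriers, which makes the cells roll. VCAM-1 and the ICAMs then bind integrins and bring them to a stop. In most tissues E-selectin and VCAM-1 appear on endothelium after inflammatory cytokines, whereas marrow sinusoids are known to carry them at rest, where they serve the homing and lodging of haematopoietic stem and progenitor cells.

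The EC library held 4536 cells with a median of 3084.5 UMIs (unique molecular identifiers, each a counted molecule), and the LepR_tdT library 4250 cells with a median of 4347. Their totals were 18152304 and 21983361 UMIs, of which 77.7% and 82.5% lay in cells. The labels held in the RNA of all cells of each library. Lepr was 608 CPM (UMIs per 1000000 UMIs of the library or class) in LepR_tdT and 16.4 CPM in EC. Cdh5, the VE-cadherin gene, was 9.48 and 793 CPM, and tdTomato 18.0 and 1.70 CPM. Classes were named from marker RNA, hence "like", in clusters built without the 9 genes. Lepr was 665 CPM in stromal-like and 18.1 CPM in sinusoidal-like cells, Cdh5 1.24 and 829 CPM, and tdTomato 19.3 and 1.80 CPM. Lepr and Cdh5 were among the naming markers, so their class levels are no separate check. The EC library held 3349 sinusoidal-like cells (with markers such as Stab2, Fcgr2b and Dnase1l3) and 305 arterial-like cells (Ly6a and Sox17 among 9 markers), together called endothelial-like. Stab2 was 1633 CPM in sinusoidal-like and 518 CPM in arterial-like cells. Fcgr2b (879 against 691 CPM) and Dnase1l3 (735 against 484 CPM) set the 2 classes apart by less than 2-fold. Vegfc, another marker of the arterial set, was 28.7 CPM in arterial-like against 2.48 CPM in sinusoidal-like cells. It was not particular to endothelium, at 324 CPM in stromal-like cells. The LepR_tdT library held 2876 stromal-like cells (Cxcl12, Gas6 and Adipoq), 271 osteolineage-like cells (Col1a1, Car3 and Alpl), 56 endothelial-like cells and a deep unnamed cluster of 319 cells led by Kit and Cxcl5. Another 747 EC and 645 LepR_tdT cells lay in shallow clusters led by mitochondrial genes and stayed unnamed. The libraries shared 42 cell barcodes, against 26.1 if barcodes were drawn independently, and no doublet caller was run. Cells carrying both endothelial and stromal markers numbered 1 among sinusoidal-like, 7 among stromal-like and 5 among osteolineage-like cells.

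The selectin genes lay side by side and had the same sense, so their sequence is shown first. On GRCm38, Sele (ENSMUSG00000026582) spans chr1:164048234-164057677 and Selp (ENSMUSG00000026580) chr1:164115264-164150026, both on the plus strand, with 57586 bases between them. RefSeq's GRCm38.p6 promoter table held 6 of the 9 genes: Sele, Selp, Icam1, Alcam, Mcam and Cd44. The 250 bases before each selectin start, 5′ to 3′ on the plus strand, were chr1:164047984-164048233 for Sele and chr1:164115014-164115263 for Selp. They are printed because each selectin was the gene whose pattern over cell clusters was most like the other's. Capitals mark AGGAAG (or its reverse complement), a form of the ETS-factor core, and TATAAA.
Sele: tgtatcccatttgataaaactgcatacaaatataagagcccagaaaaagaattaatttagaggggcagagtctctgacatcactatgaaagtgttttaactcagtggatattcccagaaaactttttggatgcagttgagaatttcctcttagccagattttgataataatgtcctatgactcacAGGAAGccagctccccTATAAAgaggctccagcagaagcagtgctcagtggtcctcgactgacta
Selp: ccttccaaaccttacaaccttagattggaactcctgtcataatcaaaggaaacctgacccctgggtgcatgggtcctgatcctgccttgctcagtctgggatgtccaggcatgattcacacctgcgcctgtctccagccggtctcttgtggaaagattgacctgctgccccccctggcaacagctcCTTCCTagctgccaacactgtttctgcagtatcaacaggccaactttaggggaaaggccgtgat
AGGAAG began 65 bases before the start of Sele on the plus strand and 64 bases before that of Selp on the minus strand. It was found, on either strand, in 29.5% of all 32851 promoter windows of the same length. TATAAA stood 49 bases before the start of Sele, matched in 12.4% of all windows, and did not overlap AGGAAG. The kappa B consensus, searched on both strands, was in 3.90% of all windows and matched none of the 6 members' windows. AGATAA, the GATA-factor core with its flanks, was in 9.99% of all windows and, among the members, in that of Cd44. A match is a description of letters, and no match says only that these letters are not in this window.

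The other members lie apart from the selectins and, by the same annotation, are protein-coding genes too. On the plus strand, Icam1 (ENSMUSG00000037405) spans chr9:21015985-21028817 and Mcam (ENSMUSG00000032135) spans chr9:44134469-44142727. On the minus strand, Vcam1 (ENSMUSG00000027962) spans chr3:116109949-116129688, Icam2 (ENSMUSG00000001029) spans chr11:106377656-106388075, Alcam (ENSMUSG00000022636) spans chr16:52248996-52454074. Also on the minus strand, Podxl (ENSMUSG00000025608) spans chr6:31519488-31563981 and Cd44 (ENSMUSG00000005087) spans chr2:102811141-102901665.

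Among the endothelial and stromal classes, Sele and Selp were highest in the sinusoidal-like class and close to 0 in the stromal-like one. Of Sele, the E-selectin gene, sinusoidal-like cells held 168 CPM (95% Poisson interval 161 to 175, from 1961 UMIs) and arterial-like cells 69.9 CPM (55.3 to 87.3, 78 UMIs). It had 3 UMIs in 2876 stromal-like cells, 1 UMI in osteolineage-like cells and 0 UMIs in the Kit and Cxcl5 cluster, where a count of 0 allows up to 1.61 CPM. All intervals cover counting error only, since each group is 1 library. Selp encodes P-selectin, which is stored in secretory granules of endothelium and platelets. Sinusoidal-like cells measured 343 CPM of it (332 to 354, 4006 UMIs) and arterial-like cells 100.4 CPM (82.7 to 121, 112 UMIs). Stromal-like cells held 8 Selp UMIs, osteolineage-like cells 3 and the Kit and Cxcl5 cluster 0. The order of classes was thus the same for both selectins, and the intervals of the vessel classes did not overlap. The shallow unnamed EC cluster held 170 CPM of Sele (136 to 209) and 268 CPM of Selp (226 to 316).

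Among single sinusoidal-like cells, 35.6% had a Sele UMI and 61.3% a Selp UMI at a median depth of 3409 UMIs. Erythroid-like cells of the same library, which should lack both, had shares of 11.8% and 9.41% at a median depth of 858 UMIs, and granulocyte-like cells 6.98% and 20.9% at 9792 UMIs. The erythroid-like cells also carried 1545 CPM of the 9 endothelial markers, with 0 of the 9 at 0, against 7599 CPM in sinusoidal-like cells, and the part of that RNA in their shares was not tested. After thinning each cell to 1000 UMIs, Sele was seen in 15.0% of sinusoidal-like cells (95% Clopper-Pearson interval 13.8 to 16.3), 5.30% of arterial-like cells (3.00 to 8.59) and 7.69% of erythroid-like cells (1.62 to 20.9, 3 of 39 cells). The thinned arterial-like share of Sele was therefore not above that background. Selp after thinning was seen in 27.6% of sinusoidal-like, 9.89% of arterial-like and 5.13% of erythroid-like cells. No thinned granulocyte-like EC cell of 42 had either selectin.

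**Figure D1:**
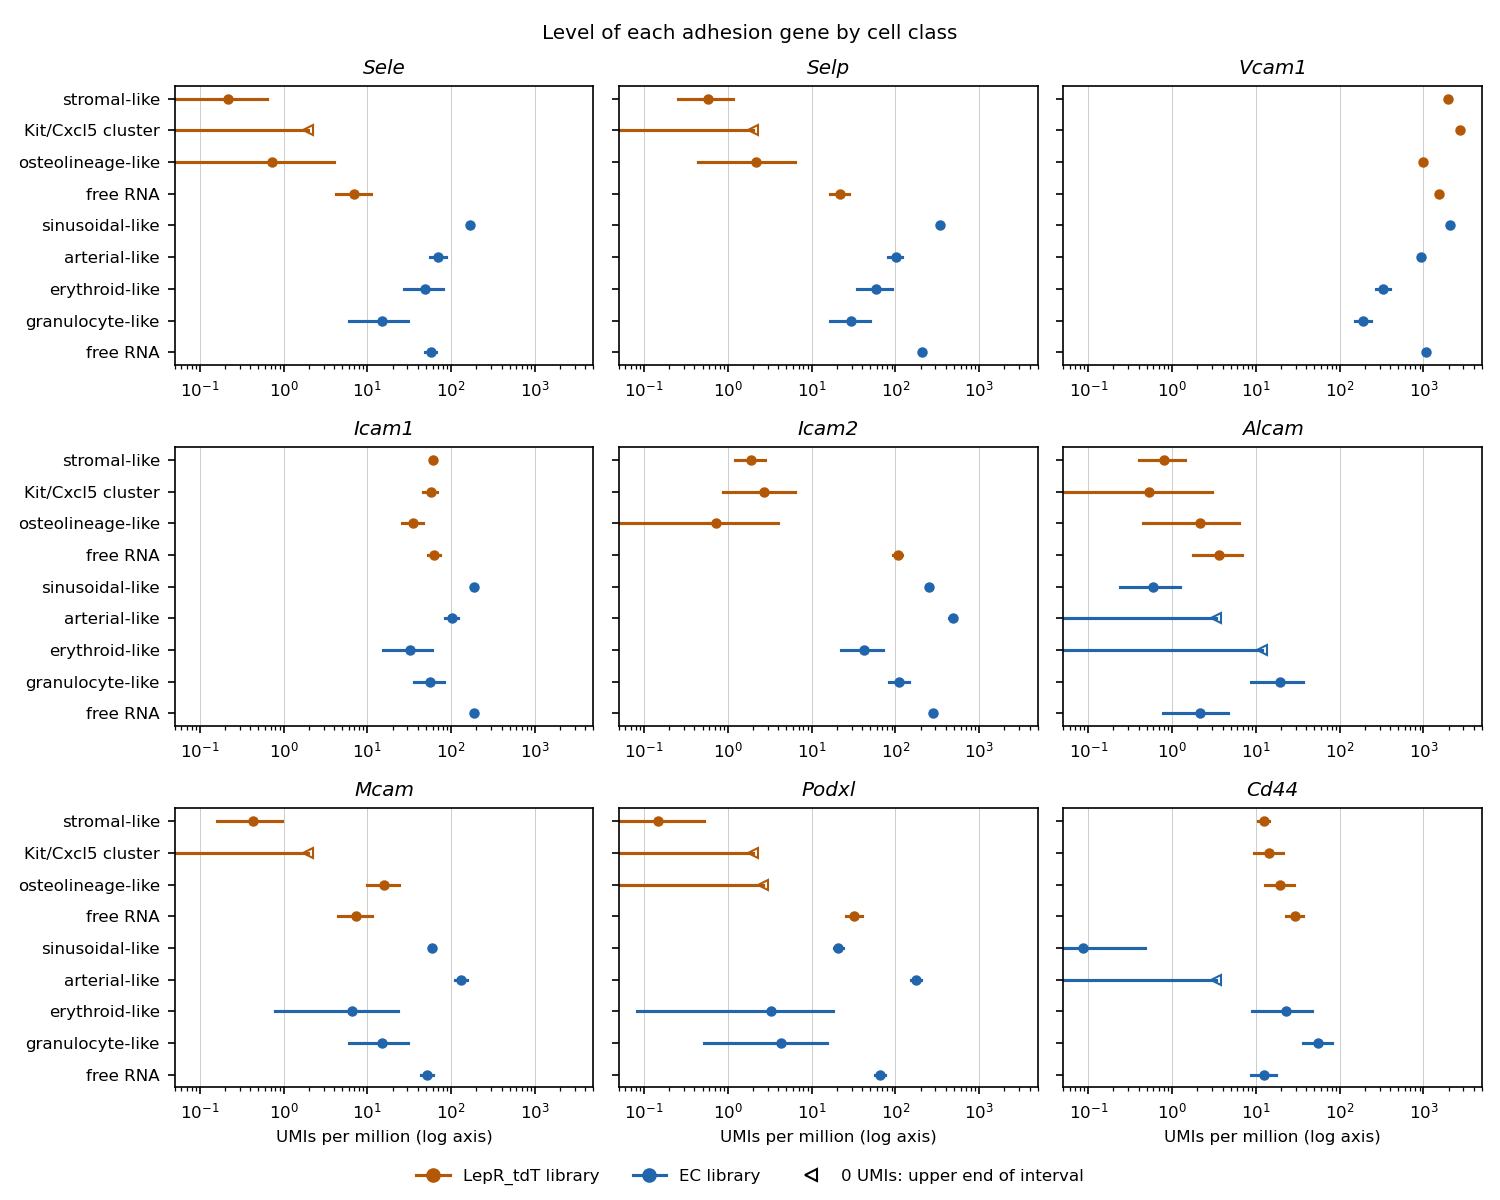
Level of each of the 9 genes in CPM (log axis) in 9 groups of RNA: classes of the LepR_tdT library (orange) and of the EC library (blue), and free RNA of each library, taken from barcodes with at most 50 UMIs. Points are summed levels, lines their 95% Poisson intervals and open triangles the upper end where no UMI was counted: Sele and Selp fall to under 3 CPM in the stromal-like and osteolineage-like classes, whereas Vcam1 is near 1000 CPM or above in all classes but the erythroid-like and granulocyte-like cells.

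Vcam1, the ligand of integrin VLA-4, was the member that endothelium and stroma shared. Sinusoidal-like cells measured 2059 CPM (2033 to 2085), stromal-like cells 1942 CPM (1919 to 1966) and the Kit and Cxcl5 cluster 2707 CPM (2633 to 2783), the highest of these classes. Osteolineage-like cells were at 994 CPM (943 to 1048) and arterial-like cells at 934 CPM (878 to 993), and the intervals of these lower classes overlapped. Vcam1 was seen in 94.98% of sinusoidal-like and 98.9% of stromal-like cells, and after thinning in 77.3% and 80.3%. Thinned erythroid-like EC cells showed it in 23.1% (11.1 to 39.3) and granulocyte-like EC cells in 9.52% (2.66 to 22.6). Within the LepR_tdT library 77.7% of all Vcam1 UMIs in cells came from stromal-like cells and 14.7% from the Kit and Cxcl5 cluster. The shallow unnamed clusters, at medians of 578 and 524 UMIs, kept high levels of 2479 CPM in EC and 1732 CPM in LepR_tdT.

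Cells differed more in Vcam1 within the sinusoidal-like and arterial-like classes than within the stromal-like class. At 1000 UMIs per cell the median count was 2 in sinusoidal-like and stromal-like cells and 0 in arterial-like cells. The ratio of variance to mean is 1 for pure counting noise. It was 2.27 in sinusoidal-like, 2.54 in arterial-like, 1.42 in stromal-like and 1.45 in osteolineage-like cells. The sinusoidal-like class pools clusters of unequal Vcam1 level, whose part in its ratio was not tested. Sinusoidal-like cells reached 20 Vcam1 UMIs in 1 cell and stromal-like cells 10. The same ratio was 1.24 for Sele, 1.10 for Selp and 1.20 for Icam1 in sinusoidal-like cells.

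Icam1, which binds the leukocyte integrin LFA-1, was present in both lineages at unequal level. Sinusoidal-like cells held 187 CPM (179 to 195), arterial-like cells 101 CPM (83.5 to 122), stromal-like cells 60.5 CPM (56.5 to 64.7) and osteolineage-like cells 35.2 CPM (26.1 to 46.6). After thinning it was seen in 16.3% of sinusoidal-like and 6.11% of stromal-like cells, against 5.13% of erythroid-like EC cells (0.627 to 17.3), so the stromal-like share alone does not stand above that background. The erythroid-like cells belong to the EC library, whose free RNA held 188 CPM of Icam1. Free RNA of the LepR_tdT library, which holds the stromal-like cells, had 62.6 CPM (53.5 to 72.7). The share of free RNA in stromal-like cells, read from granulocyte markers, was at most 1.20%. Of Icam2, a constitutive ligand of LFA-1 on endothelium, arterial-like cells held 481 CPM (442 to 524), sinusoidal-like cells 253 CPM (244 to 262) and stromal-like cells 1.89 CPM (1.23 to 2.77, 26 UMIs). Its order was the reverse of that of the selectins, with arterial-like cells on top. Among thinned cells Icam2 was seen in 36.4% of the arterial-like class and 22.0% of the sinusoidal-like class, against 11.9% of granulocyte-like and 2.56% of erythroid-like EC cells.

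Mcam, the CD146 adhesion molecule of vessel walls, followed Icam2 rather than the selectins. Arterial-like cells held 131 CPM (111 to 154), sinusoidal-like cells 59.0 CPM (54.7 to 63.6) and stromal-like cells 6 UMIs in all. The 271 osteolineage-like cells held 22 Mcam UMIs, of which 20 lay in 17 cells that a finer clustering separated as pericyte-like, at 285 CPM (174 to 440). The largest count in any of those 17 cells was 7 UMIs, and 11 of them had at least 1. Of the 17 cells 3 (17.6%) carried both endothelial and stromal markers, and their part in the Mcam count was not tested. Alcam, a homotypic adhesion molecule that also binds CD6, was close to the limit of detection. It had 7 UMIs in sinusoidal-like, 0 in arterial-like (which allows up to 2.69 CPM) and 11 in stromal-like cells. Granulocyte-like cells held 9 Alcam UMIs in EC (19.2 CPM, 8.80 to 36.5) and 7 in LepR_tdT (24.8 CPM, 9.99 to 51.2).

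Podxl, an anti-adhesive sialomucin of the apical surface that can also carry selectin ligands, reached 177 CPM (153 to 203, 197 UMIs) in arterial-like cells, while sinusoidal-like cells held 20.9 CPM (18.3 to 23.7, 244 UMIs). The 305 arterial-like cells thus held nearly as many Podxl UMIs as the 3349 sinusoidal-like ones. Stromal-like cells had 2 UMIs and osteolineage-like cells 0, which allows up to 2.16 CPM. Sinusoidal-like Podxl was seen in 1.97% of thinned cells and arterial-like Podxl in 16.3%, against 0 of 39 erythroid-like and 2.38% (1 of 42) of granulocyte-like cells.

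Cd44, the hyaluronan and osteopontin receptor that also presents E-selectin ligands on blood cells, was nearly absent from endothelial-like cells. A single UMI was counted in 3349 sinusoidal-like cells and 0 in arterial-like cells. Stromal-like cells measured 12.4 CPM (10.6 to 14.4, 170 UMIs), the Kit and Cxcl5 cluster 14.5 CPM (9.54 to 21.1) and osteolineage-like cells 19.4 CPM (12.8 to 28.2), with overlapping intervals. Granulocyte-like cells were higher, at 55.6 CPM (36.3 to 81.5) in EC and 42.6 CPM (22.0 to 74.4) in LepR_tdT. After thinning 1.29% of stromal-like cells had a Cd44 UMI, against 5.13% of erythroid-like and 2.38% of granulocyte-like EC cells.

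**Figure D2:**
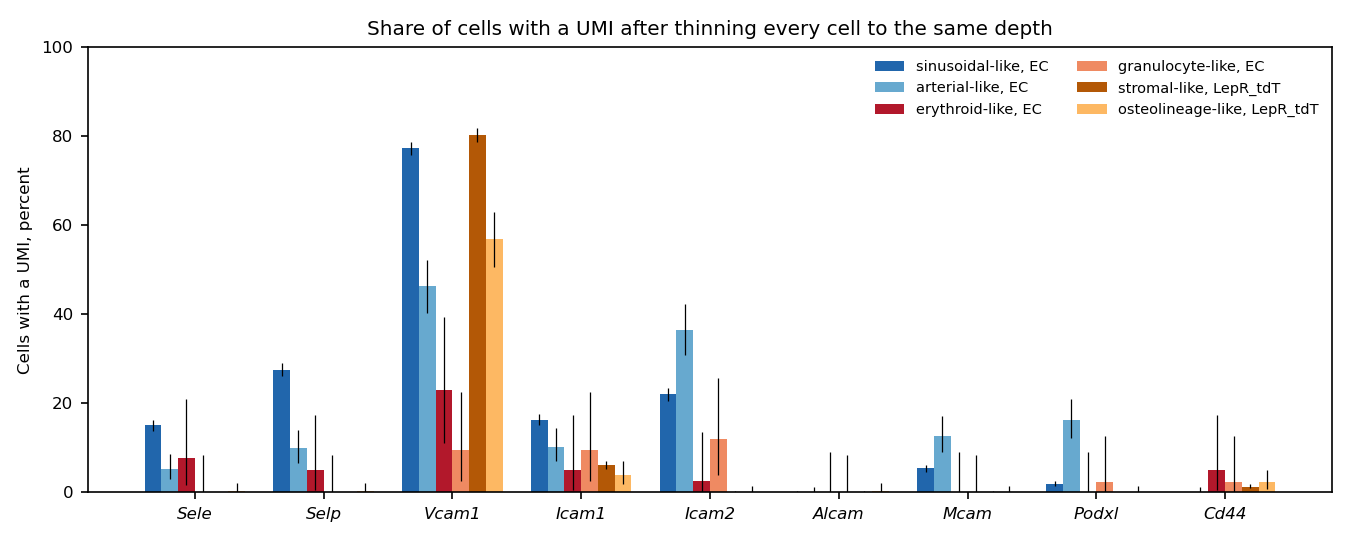
Percent of cells with at least 1 UMI of each gene (bars start at 0) after every cell was thinned to 1000 UMIs, in 6 classes of the 2 libraries, with 95% Clopper-Pearson intervals as thin lines. Vcam1 is seen in 77.3% of sinusoidal-like and 80.3% of stromal-like cells, Podxl and Icam2 are most frequent in arterial-like cells, and the erythroid-like and granulocyte-like bars give the level in blood cells of the EC library.

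Small classes of other cells held selectin RNA as well. Megakaryocyte-like cells had 49 Selp UMIs in LepR_tdT and 4 in EC, and in each library all of them came from 1 cell, the LepR_tdT cell having 87778 UMIs in all. Their summed levels, 530 CPM (392 to 701) in LepR_tdT and 612 CPM (167 to 1566) in EC, were above the 343 CPM of sinusoidal-like cells, with an overlapping interval in EC. The LepR_tdT cell also held 12 of the 13 Cd44 UMIs of its class. Of the 4 megakaryocyte-like LepR_tdT cells, 1 carried both endothelial and stromal markers, and its part in these counts was not tested. Of the 135 Selp UMIs in cells of the LepR_tdT library, this class gave 36.3% and the endothelial-like cells 48.9%. Of its 35 Sele UMIs, 80.0% were in the 56 endothelial-like cells.

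The first comparison set endothelial-like EC cells against stromal-like LepR_tdT cells. A gene with at least 20 UMIs in the pair of classes was measured, and it was called higher at a fold of at least 2 with a 95% interval that left out no difference. Of the 9 members 8 were measured, 6 were higher in endothelial-like cells, where 17.7% of the 12838 genes tested were, and 1 was higher in stromal-like cells, against 21.1% of all. The members' median log2 ratio was 7.20 and that of all genes -0.10. Sele was 730-fold higher (250 to 3545), against 3 stromal-like UMIs, and Selp 553-fold higher (280 to 1282). Podxl at 237-fold (65.2 to 1963), Mcam at 150-fold (68.4 to 409) and Icam2 at 144-fold (98.2 to 221) followed, with intervals that start below 100-fold. Icam1 was 2.97-fold higher (2.74 to 3.21). Cd44 was 158-fold higher in stromal-like cells (28.0 to 6284), against 1 UMI in endothelial-like cells. For Vcam1 the log2 ratio was 0.01 (-0.01 to 0.04), at 1961 against 1942 CPM. Alcam, with 18 UMIs in all, was not measured. The library and the cell class cannot be told apart in this comparison.

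The 56 endothelial-like cells of the LepR_tdT library show the members in the same cell class prepared with the other library. Against the endothelial-like EC cells, 0 of 7 measured members passed in either direction, where 1.74% of 11131 genes were higher in the LepR_tdT and 1.51% in the EC cells. Sele was 147 against 159 CPM, Selp 346 against 322 CPM, Icam1 183 against 179 CPM and Icam2 315 against 273 CPM. Those 4 log2 ratios had intervals that included 0, at -0.12 (-0.71 to 0.42) for Sele and 0.10 (-0.27 to 0.46) for Selp. Vcam1 was lower in the LepR_tdT cells, at 1295 against 1961 CPM with a log2 ratio of -0.60 (-0.79 to -0.42), which did not reach the fold of a call. The median log2 ratio was 0.03 for the members and -0.12 for all genes. Of the lists described further on, Hyal1, Spp1 (320 against 1.25 CPM), Ccl2, Cxcl2, Edn1, Hspa1a and Nr4a1 were higher in the LepR_tdT cells and Cd34 in the EC cells. These cells also carried 2621 CPM of the 12 stromal markers, with 0 of them at 0, against 379 CPM in sinusoidal-like EC cells with 1 at 0, and the part of that in the values was not tested.

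**Figure D3:**
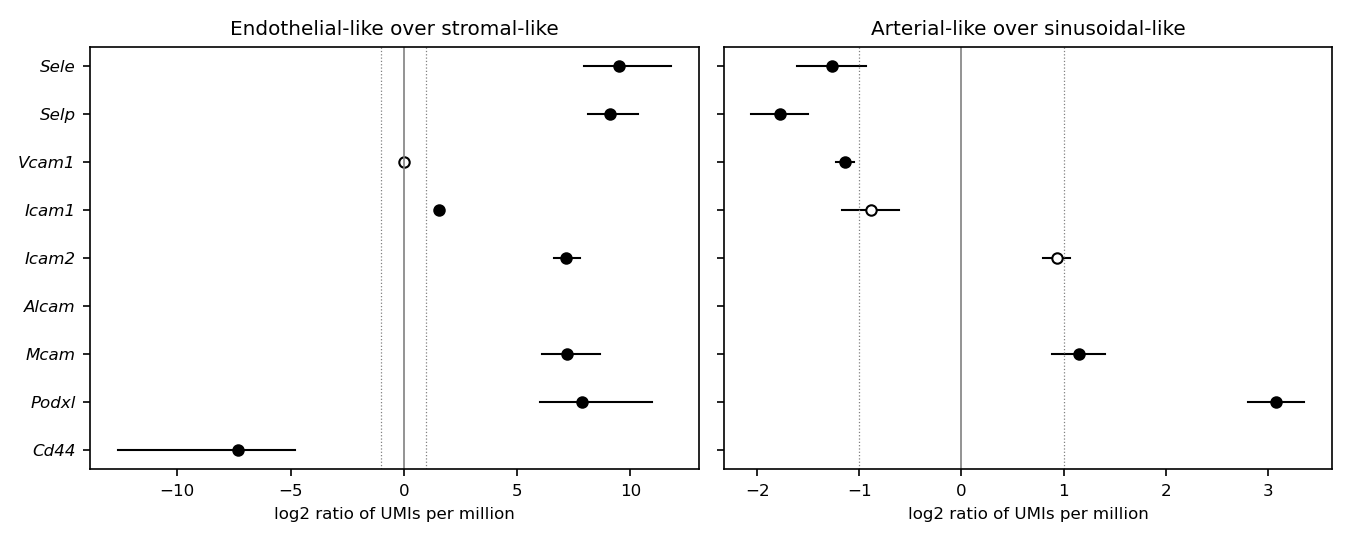
Log2 ratio of CPM for each gene, endothelial-like EC over stromal-like LepR_tdT cells at left and arterial-like over sinusoidal-like EC cells at right, with 95% intervals of counting error. Filled points passed the call (fold of at least 2, dotted lines), open points did not, and genes with fewer than 20 UMIs have no point. Vcam1 sits at 0.01 at left, and at right the selectins and Vcam1 lie below -1 while Podxl lies at 3.08.

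Within the EC library the members parted by vessel type. Of 7 measured, 3 were higher in sinusoidal-like cells, where 3.45% of 11103 genes were, and 2 in arterial-like cells, against 5.79% of all genes. The median log2 ratio of arterial-like over sinusoidal-like was -0.88 for the members and 0.11 for all genes. Selp was 3.41-fold (2.83 to 4.16), Sele 2.40-fold (1.91 to 3.05) and Vcam1 2.20-fold (2.07 to 2.35) higher in sinusoidal-like cells. Podxl was 8.46-fold (6.97 to 10.2) and Mcam 2.22-fold (1.84 to 2.66) higher in arterial-like cells. Icam1 at a log2 ratio of -0.88 (-1.17 to -0.61) and Icam2 at 0.93 (0.80 to 1.06) did not reach the fold of a call. Scaling by TMM moved all ratios by -0.17, which took Mcam to 0.98 and out of the call and Icam1 to -1.06 and into it. At clustering resolution 1 no cluster was named sinusoidal-like, so 418 arterial-like cells were set against 3155 other endothelial-like cells. Sele was then -0.94 and Vcam1 -0.78, and neither passed. Against sinusoidal-like cluster 2 alone Vcam1 was -0.81 and lost its call, while Icam1 at -1.51 and Icam2 at 1.03 gained one. With the members and lists left in the clustering Icam1 was -1.04 and Icam2 1.10, and both passed. The arterial-like cells still held 2912 CPM of the 7 sinusoidal markers, against 5586 CPM in sinusoidal-like cells, with 0 of the 7 at 0 in both. Where cells were instead gated by their marker sums, the ratios were larger, at -3.57 for Sele, -2.79 for Selp, -2.35 for Vcam1, -1.18 for Icam1 and 1.48 for Icam2, and all 5 passed.

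The sinusoidal-like class itself held 2 large clusters that differed in the members. Cluster 1 (2186 cells) had 124 CPM of Icam1 and cluster 2 (1119 cells), led by stress-response genes such as Apold1 and Atf3, had 288 CPM. Vcam1 ran the other way, at 2323 CPM in cluster 1 and 1636 CPM in cluster 2. Sele was 154 and 191 CPM and Selp 310 and 397 CPM. A small cluster of 44 cells led by the antigen-presentation genes H2-Aa and Cd74 had 2319 CPM of Vcam1 and 123 CPM of each of Sele and Icam1.

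Immediate early and heat-shock genes are known to be switched on by tissue digestion as well as by stimuli in the animal, which cannot be told apart here. Sinusoidal-like cells were split in 4 equal groups by the share of their UMIs in a list of 18 such genes (Fos, Jun and Junb held the most UMIs). The list rose from 981 to 21402 CPM over the groups by construction. Icam1 was 98.5, 115, 189 and 319 CPM from the lowest to the highest group, which is 3.24-fold higher (2.81 to 3.73) at the top. It was the 1 member of 7 measured that was called, where 2.58% of 9951 genes were higher in the highest and 1.2% in the lowest group. Sele was 120.1, 148, 201.05 and 191 CPM and Selp 304, 301, 337 and 417 CPM, log2 ratios of 0.67 (0.47 to 0.88) and 0.45 (0.33 to 0.59) that did not reach the fold. Vcam1 was 2429, 2408, 1849 and 1658 CPM, a log2 ratio of -0.55 (-0.60 to -0.50). Icam2, Mcam and Podxl had intervals that included 0. The groups differed in depth, with median UMIs of 2918.5, 3320, 3576 and 3742, and in sinusoidal markers, at 6140, 5686, 5573 and 5071 CPM. Cluster 2 made up 1.19% of the lowest and 84.3% of the highest group. With every cell thinned to 1000 UMIs the Icam1 log2 ratio was 1.66 and still passed. The median log2 ratio of the 7 members was 0.17 and that of all genes -0.07.

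Of the 16 genes of the NF-kappaB and cytokine response list, 6 were higher in the highest group, where 2.58% of all genes were. In the lowest group 0 were higher, against 1.2% of all genes. The 6 are named next. They were Nfkbia, the inhibitor that NF-kappaB itself induces (884 against 248 CPM), Tnfaip3, Irf1, Birc3 and the neutrophil chemokines Cxcl1 (45.9 against 1.19 CPM, 3 UMIs in the lowest group) and Cxcl2 (25 against 0 UMIs, at least 6.57-fold higher). Nfkb1 and Tnfrsf1a, the other most abundant members, had log2 ratios of -0.06 and -0.10. None of the measured selectin ligand carriers (4), ligand enzymes (7), integrins (4), junction genes (9), hyaluronan genes (2) or Weibel-Palade genes (3) passed in either direction. Of 8 cortical linkers 1 did, Slc9a3r1, at 22 against 6 UMIs.

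Stromal-like cells were split by the same list, a comparison added after seeing the data. Vcam1 was 2059 CPM in the highest and 1919 CPM in the lowest group, and Icam1 77.0 and 53.3 CPM, a log2 ratio of 0.53 (0.25 to 0.81). Of 3 members measured 0 were called, where 1.86% of 10637 genes were higher in the highest and 0.696% in the lowest group. Of 15 NF-kappaB and cytokine genes 4 were higher in the highest group and 0 in the lowest. They were Ccl2 (576 against 169 CPM), Cxcl1 (219 against 11.5 CPM), Irf1 (262 against 115 CPM) and Tnfaip3 (55 against 28 UMIs). Of 5 hyaluronan genes Tnfaip6 was higher, at 84 against 41 UMIs. In arterial-like cells split at the median, Icam1 was 84.9 CPM below and 114 CPM above, and Vcam1 1161 and 754 CPM. Sinusoidal markers fell with it from 3409 to 2516 CPM. The differences between classes in these slopes were not tested.

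**Figure D4:**
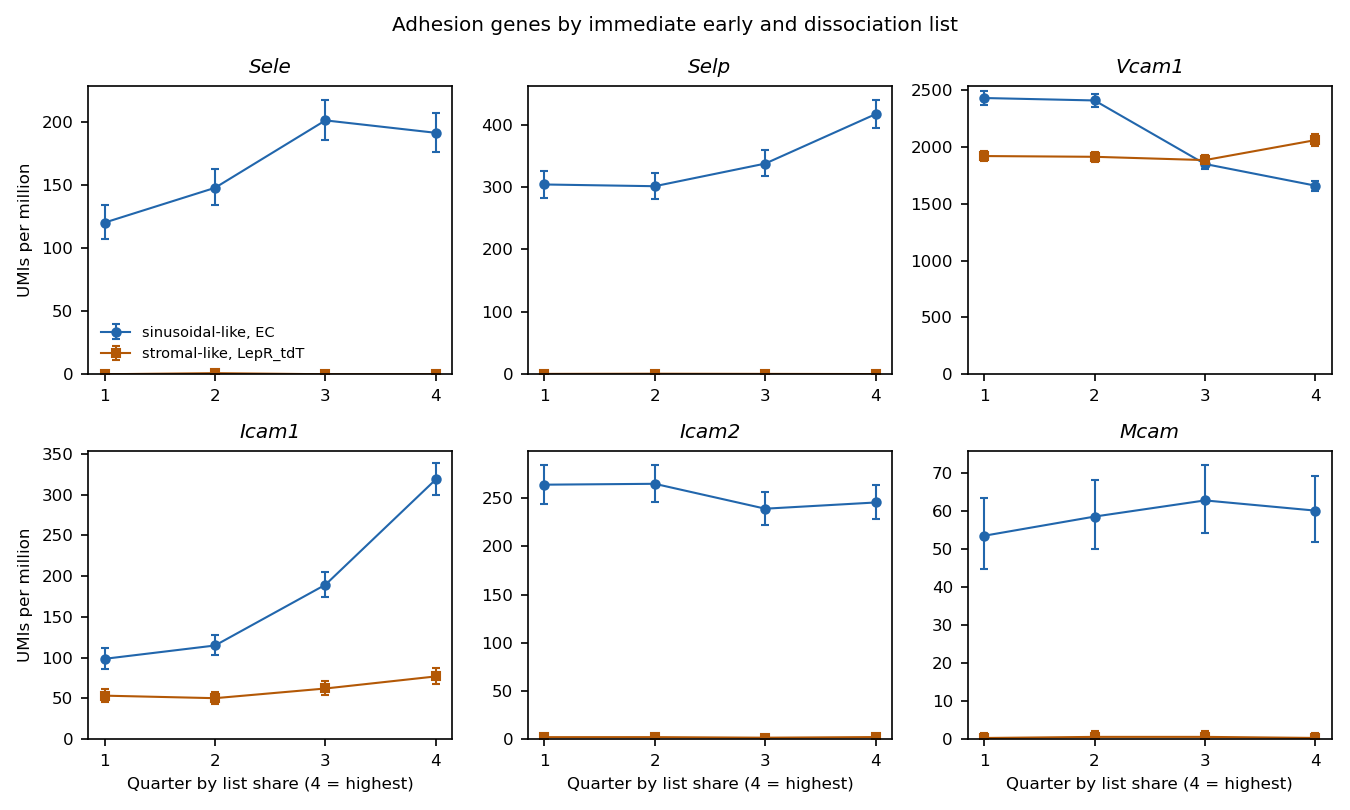
CPM (axes start at 0) of 6 genes in 4 equal groups of cells ordered by the share of UMIs in the immediate early and dissociation list, for sinusoidal-like EC cells (blue circles) and stromal-like LepR_tdT cells (orange squares), with 95% Poisson intervals. Icam1 goes from 98.5 to 319 CPM in sinusoidal-like cells while Vcam1 goes from 2429 to 1658 CPM, and stromal-like Vcam1 stays between the levels of those groups.

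Within the LepR_tdT library, osteolineage-like cells were compared with stromal-like cells. Of 5 measured members 1 was higher in osteolineage-like cells, where 5.42% of 11783 genes were, and 0 in stromal-like cells, against 5.2% of all. The median log2 ratio was -0.78 for the members and -0.08 for all genes. That gene was Mcam, at 22 against 6 UMIs and a log2 ratio of 5.18 (3.83 to 6.77), and without the 17 pericyte-like cells, which left 2 UMIs (1.51 CPM), it was no longer measured. Osteolineage-like cells carried 1424 CPM of the 6 pericyte markers (Rgs5, Acta2 and Des among them), against 57.9 CPM in stromal-like cells, with 0 of the 6 at 0 in either. They also carried 2892 CPM of the 8 erythroid markers, with 1 at 0, against 190 CPM in stromal-like cells with 0 at 0, and the part of either set in the ratios was not tested. Vcam1 was 994 against 1942 CPM, a log2 ratio of -0.97 (-1.05 to -0.89) just short of the call, and Icam1 had -0.78 (-1.23 to -0.36). Cd44 had 0.65 (0.01 to 1.24). In a gate on marker sums without clusters, Vcam1 at -1.79 and Icam1 at -1.85 both passed as higher in stromal-like cells. The Kit and Cxcl5 cluster, compared with stromal-like cells after seeing the data, had a Vcam1 log2 ratio of 0.48 (0.44 to 0.52). Of its 4 measured members 0 were called, against 2.94% and 3.29% of 11748 genes. Of its lists, 9 of 17 immediate early and heat-shock genes and 2 of 15 NF-kappaB genes (Tnfaip3 and Cxcl1, 361 against 84.6 CPM) were higher in the cluster, and 1 of 2 carriers, Emcn, in stromal-like cells.

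Other genes of the rolling and adhesion machinery were read in the same comparisons. Of 5 measured carriers of selectin ligands, 5 were higher in endothelial-like than in stromal-like cells, against 17.7% of all genes. Their median log2 ratio was 5.01. Emcn, an endothelial sialomucin, was 582 against 7.05 CPM, Cd34 33.7 against 0.22 CPM, Cd164 133 against 60.3 CPM, Cd24a 2.42 against 1.02 CPM, and Madcam1, the addressin bound by integrin alpha4-beta7, 90 against 0 UMIs (at least 32.2-fold higher). Within EC, Cd34 (319 against 6.42 CPM) and Cd24a were higher in arterial-like cells and Madcam1 in sinusoidal-like cells (89 against 1 UMI).

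Enzymes that build or sulphate the sugars gave 3 of 7 higher in endothelial-like and 1 higher in stromal-like cells, against 17.7% and 21.1% of all genes. The sulphotransferase Chst2 was 435 against 102 CPM, the tyrosine sulphotransferase Tpst2 159 against 45.7 CPM and the sialyltransferase St3gal4 57.8 against 14.5 CPM. The sialyltransferase St3gal6 was 363 CPM in stromal-like and 76.3 CPM in endothelial-like cells. Chst2 was also higher in sinusoidal-like than arterial-like cells, at 457 against 200.8 CPM. It was the single call among 7 enzymes there, where 3.45% of all genes were higher in sinusoidal-like cells.

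Of 5 measured integrins, Itga5 and Itga6 were higher in endothelial-like cells and Itgb1 (408 against 202 CPM), Itgav and Itgb3 in stromal-like cells. None of 4 passed between vessel types. Of 9 junction genes through which leukocytes pass, 5 were higher in endothelial-like cells (Plvap, Esam, Pecam1, F11r and Jam2) and 1 in stromal-like cells (Jam3), while Cd47 was 426 against 414 CPM. Arterial-like cells were higher in 3 of 9, Jam2 (152 against 4.71 CPM), Pecam1 (694 against 338 CPM) and Jam3. Of 8 cortical linkers, which tie adhesion molecules to actin, 5 were higher in endothelial-like cells and 1, Slc9a3r1, in stromal-like cells (94.6 against 4.84 CPM). Slc9a3r2, a linker known to bind podocalyxin, was 507 CPM in arterial-like and 115 CPM in sinusoidal-like cells, and it and Slc9a3r1 were the 2 of 8 that passed there. The abundant linkers Rdx, Msn and Actn4 had log2 ratios of 0.49, 0.82 and 0.35 and did not.

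Of 5 measured partners of Cd44 and hyaluronan, 3 were higher in stromal-like cells, Spp1 (the osteopontin gene, 5819 against 1.25 CPM), Vcan and Tnfaip6 (273 against 0 UMIs, at least 84.7-fold higher), and 1, Hyal2, in endothelial-like cells, while Hyal1 was 14.9 against 19.8 CPM. Spp1 was higher still in osteolineage-like cells, at 33796 CPM. Of 16 NF-kappaB and cytokine genes, 2 were higher in endothelial-like cells (Nfkb1 and Cxcl2) and 5 in stromal-like cells (Ccl2, Il1r1, Tnfrsf1b, Irf1 and Cxcl1). The shares of all genes were 17.7% and 21.1%. Nfkbia was 471 against 516 CPM and the TNF receptor gene Tnfrsf1a 370 against 318 CPM. Between vessel types Cxcl1 was 225 UMIs in sinusoidal-like and 0 in arterial-like cells (at least 7.16-fold higher) and Tnfrsf1b passed as higher in arterial-like cells. Of all genes 3.45% were higher in sinusoidal-like and 5.79% in arterial-like cells. Of 5 genes of Weibel-Palade bodies, the granules in which endothelium stores P-selectin, 1 was higher in endothelial-like cells, Edn1 (55 against 5 UMIs). Cd63 (2137 against 587 CPM) and Vwf (39 against 17 UMIs) were higher in stromal-like cells, and Angpt2 and Rab3d did not pass. The stromal-like cells also held 192 UMIs of Pf4 and 209 of Ppbp, which are megakaryocyte markers. The part of such RNA in their few Vwf UMIs was not tested. Edn1 was also the 1 of 4 that passed between vessel types, higher in arterial-like cells.

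Osteolineage-like and stromal-like cells were read in the same lists, where 5.42% and 5.2% of all genes were higher in the one and the other. Higher in osteolineage-like cells were 2 of 4 carriers (Cd34 and Cd24a), 1 of 4 integrins (Itgb3), 1 of 8 junction genes (Esam), 2 of 8 linkers (Ezr and Filip1l), 1 of 5 hyaluronan genes (Spp1), 1 of 16 NF-kappaB genes (Cxcl2) and 0 of 7 enzymes. Higher in stromal-like cells were 1 linker (Slc9a3r1), 4 NF-kappaB genes (Ccl2, Il1r1, Nfkb2 and Nfkbie) and 2 Weibel-Palade genes (Angpt2 and Vwf). Of the 18 immediate early and heat-shock genes, Atf3, Klf4 and Apold1 were higher in osteolineage-like cells. Endothelial-like against stromal-like cells gave 5 higher (Atf3, Hspa1a, Hspa1b, Klf4 and Apold1) and 2 lower (Egr1 and Nr4a1). The shares of all genes were 17.7% and 21.1%. Between vessel types Zfp36 alone passed, higher in sinusoidal-like cells, where 3.45% of all genes were.

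Patterns across clusters were compared over 24 groups of cells (13 EC and 11 LepR_tdT clusters of at least 30 cells), as Pearson correlations of log2(CPM + 10). These are descriptions, since the groups share libraries, depth and the gap between lineages. The gene most like Sele was Selp (r = 1.00 when rounded), followed by Adgrg6, an adhesion G protein-coupled receptor, and Mmrn1, which encodes multimerin. Selp was most like Sele, Clca3a1 and Mmrn1. Vcam1 was most like Laptm4b (0.91), Tgfbr3 (0.83) and Apoe (0.83), and had 0.11 with Sele and 0.07 with Selp. Icam2 had 0.92 with Sele and 0.93 with Selp, Icam1 0.80 and 0.78, and Cd44 -0.72 and -0.70.

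Inside single sinusoidal-like cells the tie between the selectins was small at full depth and not resolved at equal depth. At full depth Selp was seen in 66.0% (63.2 to 68.7) of cells with Sele and 58.8% (56.7 to 60.9) without it. Those intervals did not overlap. Thinning leaves fewer UMIs of each gene, so the shares at equal depth can miss a weak tie. At an equal 1000 UMIs per cell the shares were 30.4% (26.4 to 34.7) of 496 cells and 27.1% (25.4 to 28.8) of 2802 cells, with overlapping intervals. Icam1 was seen in 16.5% and 16.3%, and Vcam1 in 77.2% and 77.3%, of the same cells. Of Sele, Selp, Vcam1 and Icam1, all 4 were seen in 11.2% of sinusoidal-like cells, 4.59% of arterial-like cells and 0 of 2876 stromal-like cells at full depth (up to 0.104% allowed by a count of 0). These shares depend on depth. At 1000 UMIs per cell all 4 were seen in 0.637% of sinusoidal-like cells (21 of 3298), 0 of 283 arterial-like and 0 of 2862 stromal-like cells.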

How the data were processed

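Single cells of 2 droplet libraries were sequenced, 1 library per labelled population, so groups have no replicates and no p-value is given. The deposited matrix holds raw UMI counts for 27999 genes and all barcodes, and the authors' cell table gives each cell's library. Cell Ranger 2.1.1, Seurat 2.3.4 and mm10 are named per the submitters' processing notes, with no roles. Recomputed UMI totals matched the table for 4536 EC and 4250 LepR_tdT cells. The table names no cell types.

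All cells were clustered in scanpy 1.11.5 (10000 UMIs per cell, log, 2000 variable genes, 30 components, 15 neighbours, igraph 0.11.9 Leiden at resolution 0.5, best of 20 seeds). Genes in fewer than 10 cells, mitochondrial genes, tdTomato, the 9 members and all listed genes were left out, and 1552 genes were used. A name needed 3 markers at 1.5-fold over other cells. An arterial-like cluster also needed 3 arterial markers at 2-fold over the other endothelial-like clusters. A sinusoidal-like cluster needed 3 sinusoidal markers at 2-fold over the arterial-like cluster. UMIs were summed per class, with exact Poisson, Clopper-Pearson and conditional binomial 95% intervals. A count of 0 was read as up to 3 counts. Free RNA is the sum of barcodes outside the cell table with at most 50 UMIs, and the free share of a class is an upper limit from markers of absent cells. Simulated data with 4-fold changes held counting noise only. There 98.5% of changed genes were called among 12854 genes for endothelial-like against stromal-like, and 87.4% among 11099 for arterial-like against sinusoidal-like. For osteolineage-like against stromal-like it was 93.5% among 11766. These rates do not cover variation between cells or libraries, which the simulation left out.

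The members, lists and markers were chosen with earlier results of these data known. Named were the 9 members, the 3 genes of each list with the most UMIs in the classes compared, the 3 genes most like Sele, Selp and Vcam1, and Lepr, Cdh5 and tdTomato. The leading genes of the marker sets behind the main classes were also named. Other genes named for passing a comparison were chosen after their values were seen. Nectin2, Cnmd and Trbc2 were not matched by symbol. Positions come from GENCODE M21 on GRCm38, which held 27722 of the gene identifiers. Python 3.11.15, numpy 2.4.6, scipy 1.17.1 and, for TMM, edgeR 4.0.16 in R 4.3.3 were used.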

Additional observations from a re-analysis of the deposited data

How the results depend on the processing

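Counts of members were taken again with other scalings, UMI minimums, free RNA subtracted, each cell weighted equally, other clusterings and a marker gate. Cells of mixed markers, pericyte-like cells and single sinusoidal-like clusters were tried after seeing the data. Of 440 alternative log2 ratios of members, 425 stayed on their side of the call, 10 passed newly and 5 no longer passed. Some ratios that passed in no setting changed sign, among them Icam2 in osteolineage-like against stromal-like cells, from -1.66 to 0.19. Members higher in arterial-like cells were 1 instead of 2 under TMM and under median-of-ratios scaling, and members higher in the class set against them 1 instead of 3 at resolution 1, where that class was the other endothelial-like cells because none was named sinusoidal-like. Members higher in osteolineage-like cells were 0 instead of 1 at a minimum of 50 UMIs, with the lists left in the clustering, at resolution 1, in the marker gate and without pericyte-like cells. Members higher in stromal-like cells were 2 instead of 0 in that gate. Members higher in the endothelial-like LepR_tdT cells were 1 instead of 0 without a UMI minimum (Cd44, 2 UMIs against 1). The share of all genes higher in the lowest list group of sinusoidal-like cells was 0.784% under TMM, 0.554% at 50 UMIs, 0.531% in a split at the median and 1.87% after thinning, and that of stromal-like cells 0.281% at 50 UMIs, 0.407% in a split at the median and 1.43% after thinning. The share higher in the highest group of stromal-like cells was 1.12% in a split at the median, and in the marker gate 8.34% of genes were higher in stromal-like than in osteolineage-like cells. No called ratio changed sign under these settings. No paired analysis was possible because each group is 1 library, and no replicate could be left out. Depth limits Alcam, Cd44 in endothelium and the selectins in stroma to a few UMIs.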

Other observations

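Free RNA of the LepR_tdT library held more of some endothelial members than its cells did. Podxl was 32.0 CPM in free RNA and 0.551 CPM in cells, 58.1-fold higher (30.1 to 125), and Icam2 was 107 and 6.23 CPM, 17.1-fold higher (13.7 to 21.5). Cdh5 was 8.93-fold higher there, Sele 3.62-fold and Selp 2.92-fold, so these genes were unevenly raised. Vcam1 was lower in free RNA, at 1514 against 1895 CPM. The 6 megakaryocyte markers, Pf4, Ppbp and Gp1bb among them, were also high in that free RNA, at 1946 CPM against 507 CPM in cells. In the EC library Podxl was 2.06-fold higher in free RNA (1.72 to 2.45), Icam2 had an interval that included no difference, and the megakaryocyte markers were 116 CPM against 85.2 CPM in cells. The part of other cells' RNA in these values was not tested.

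Cd44 was 5.21-fold higher in free RNA than in cells of the EC library (3.16 to 8.61), with 35 UMIs in free RNA and 34 in all 4536 cells. Barcodes outside the cell table with more than 50 UMIs, 13793 in EC and 12189 in LepR_tdT, held no member whose 95% interval lay above that of free RNA. The LepR_tdT levels of Vcam1 there were 1615 CPM (1542 to 1691), against 1514 CPM (1468 to 1561).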
